A study of Aspergillus nidulans with 6 samples.

Results

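Glycolysis was followed through 10 genes of Aspergillus nidulans, a filamentous fungus, among the 10988 features of the deposited table. The genes were chosen by function and gene number and are, in pathway order, hxkA (AN7459), glkA (AN8689), swoM (AN6037), AN8223 (given as pfkA), fbaA (AN2875), tpiA (AN6900), gpdA (AN8041), pgkA (AN1246), acuN (AN5746) and pkiA (AN5210). RNA was sequenced from mycelium of the wild type FGSC A4, in 3 libraries from cultures given 35 mM tyrosol in exponential phase and 3 libraries from untreated cultures. Both groups were the same strain, shaken at 220 rpm in Barratt's minimal broth at 37 °C. The length of the exposure is not given in the sources used here, and 1 strain was used. Tyrosol is an aromatic alcohol that yeasts such as Candida albicans secrete and sense as a quorum signal. The question here is how the transcripts of the pathway, step by step, differ between mycelium with and without tyrosol.

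Glycolysis splits glucose into pyruvate and yields ATP and NADH. Hexokinase, phosphofructokinase and pyruvate kinase catalyse steps that are in practice irreversible, whereas the enzymes between them also run backwards when fungi make sugar from acetate, ethanol or amino acids. The reversible enzymes are therefore shared with gluconeogenesis, which replaces the irreversible steps with enzymes of its own.

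The tyrosol libraries held 10632981 to 11506581 counted reads and the untreated libraries 9353438 to 11917409. Levels are given in RPKM, read counts scaled by gene length and by the library total, and can be compared between genes. Each log2 fold change sets tyrosol over untreated, ± SE, and comes from edgeR's quasi-likelihood test with TMM scaling (factors that centre the bulk of the genes), and adjusted p-values are Benjamini-Hochberg over all 8905 features tested. A gene is said to have risen or fallen at an adjusted p under 0.05. Scaling by library size alone moved the median over all features by -0.22 on the log2 scale, so rises and falls are relative to the other features. In bulk RNA, fewer cells expressing a gene and less RNA per cell cannot be told apart. The labels do not say whether replicates came from separate cultures, so the tests speak only of the spread among these libraries, which may be technical.

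The pathway did not move as a block. The transcripts of glkA, swoM, fbaA, gpdA, pgkA and pkiA fell, to between 23.4% and 42.8% of their untreated RPKM means. Those of hxkA and tpiA rose, to 140% and 122%. The enolase gene acuN and AN8223 had RPKM values that overlapped between the groups, and their small rises passed the test only with some scalings. All 10 passed the test, as did 83.5% of all tested features. By direction, 6 of 10 genes fell, against a background of 42.9% of all tested features, and 4 of 10 rose, against 40.6%. With TMM scaling, a fall of at least 2-fold was found for 5 of 10, against 24.5% of all tested features. A rise of at least 2-fold was found for 0, against 23.1%. The percentages of RPKM means above rest on library totals instead. The median log2 fold change of the 10 genes was -1.08, beside -0.04 for all tested features. All 10 passed the filter on low counts, and the groups did not overlap in RPKM for 8 of them, against 84.8% of tested features.

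**Figure D1:**
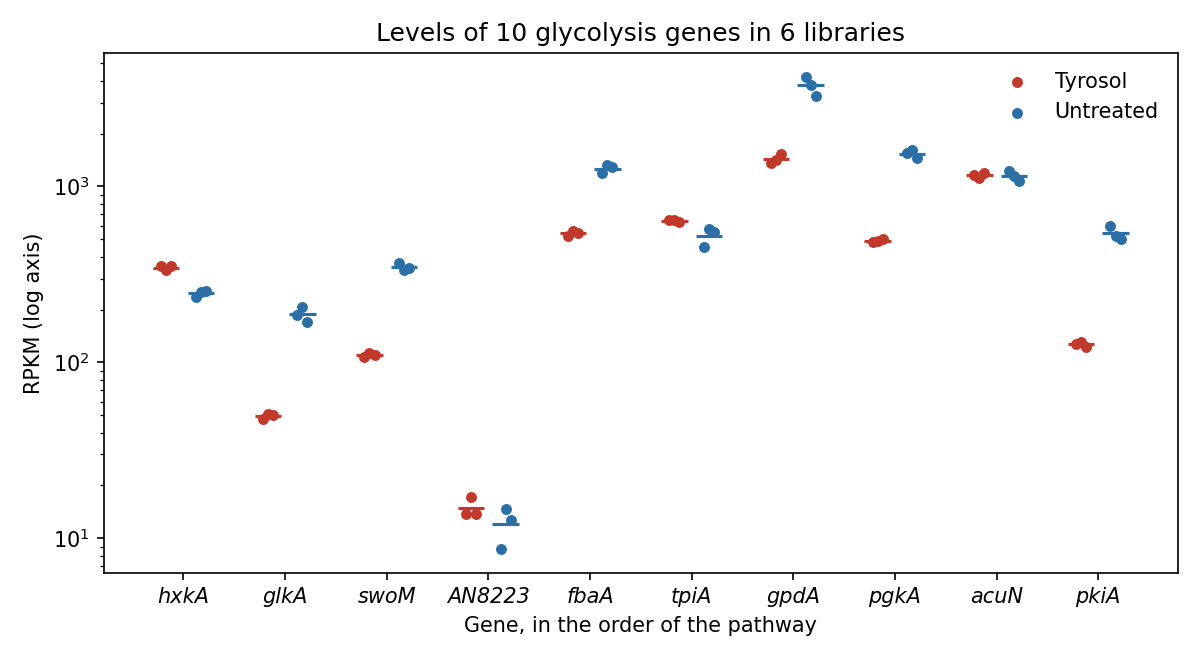
RPKM on a log axis for each gene in pathway order, with 1 point per library and a bar at the mean of 3 libraries, tyrosol at the left of each pair. The tyrosol points lie below the untreated ones for glkA, swoM, fbaA, gpdA, pgkA and pkiA, above them for hxkA and tpiA, and among them for AN8223 and acuN.

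The first step, phosphorylation of glucose, is carried by a pair of enzymes. Hexokinase, from hxkA, accepts glucose and fructose, and glucokinase, from glkA, is more specific for glucose. The hxkA transcript had 352, 334 and 353 RPKM in tyrosol libraries 1, 2 and 3, against 236, 251 and 255 RPKM in untreated libraries 1, 2 and 3. Every tyrosol library lay above every untreated one, and the log2 fold change was 0.71 ± 0.08 (adjusted p = 1.5e-06).

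The glkA transcript had 47.5, 50.9 and 50.2 RPKM in the tyrosol libraries, against 187, 206 and 170 RPKM in the untreated ones. The groups were far apart, and the log2 fold change was -1.70 ± 0.09 (adjusted p = 1.6e-09). Among all features of the table, glkA ranked 2185 by mean RPKM with tyrosol, against 611 untreated.

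At this step the shares of the genes differed between the groups. The summed RPKM of hxkA and glkA was 399, 385 and 403 in the tyrosol libraries and 422, 457 and 424 in the untreated libraries, a ratio of means of 0.911. Divided by the TMM factors, the sums were 428 ± 12.4 with tyrosol and 402 ± 18.6 untreated (SD, n = 3 each), a ratio of 1.06 with overlapping groups, so the direction of the total depends on the scaling. The share of hxkA in that sum was 87.5% ± 0.675 in tyrosol libraries and 56.9% ± 2.74 in untreated libraries (SD, n = 3 each). The ratio of glkA to hxkA was 0.135, 0.153 and 0.142 in the tyrosol libraries, against 0.792, 0.824 and 0.667 in the untreated libraries. It was lower in every tyrosol library, with a difference of -2.41 on the log2 scale (two-sided exact permutation test, p = 0.1, the smallest that 3 against 3 allows). A ratio within a library does not depend on the scaling between libraries.

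**Figure D2:**
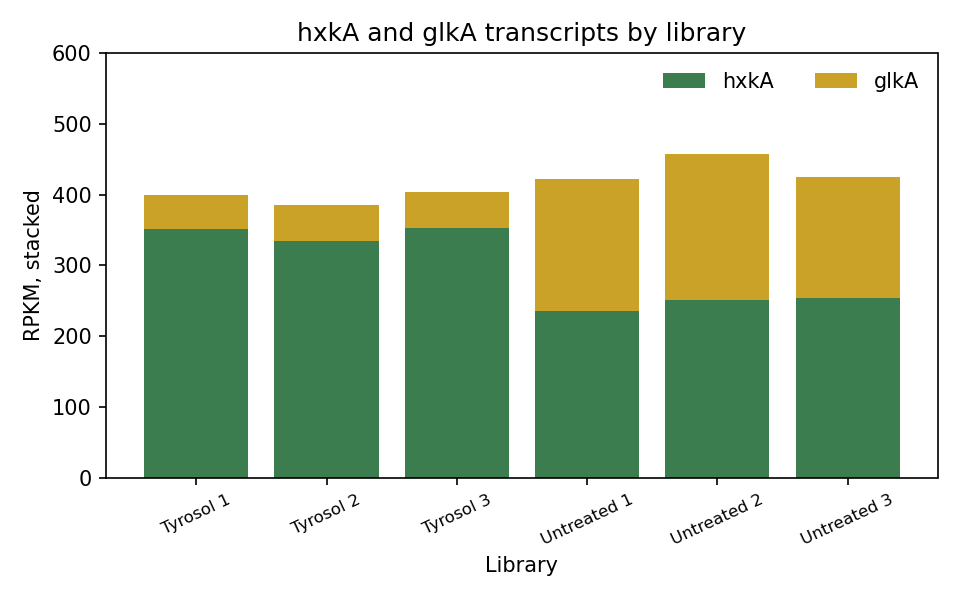
Stacked RPKM of hxkA (lower part) and glkA (upper part) in each library, the 3 tyrosol libraries at the left. The bars reach 385 to 403 RPKM with tyrosol and 422 to 457 RPKM untreated (an order that turns with TMM scaling), while the glkA part is 47.5 to 50.9 RPKM with tyrosol and 170 to 206 RPKM untreated.

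Glucose 6-phosphate isomerase, from swoM, makes fructose 6-phosphate. Its name comes from a mutant with swollen hyphal cells. The swoM transcript had 108, 113 and 110 RPKM in the tyrosol libraries, against 369, 336 and 343 RPKM in the untreated libraries. All tyrosol values were under all untreated ones, and the log2 fold change was -1.44 ± 0.08 (adjusted p = 1.8e-09). The ratio of hxkA to swoM, the enzymes before and at this step, was 2.96 to 3.27 with tyrosol and 0.638 to 0.746 untreated, so their order by level was opposite in the groups. The ratio of glkA to swoM lay much closer, at 0.441 to 0.455 with tyrosol and 0.495 to 0.615 untreated.

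Phosphofructokinase commits fructose 6-phosphate to glycolysis. The feature that stands for it here, AN8223, is listed with a length of 751 bases, enough for at most 250 codons. Fungal phosphofructokinase subunits are much longer proteins, so the feature can at most be a fragment of such a gene and its level cannot be read as that of the enzyme. The reference table gives AN8223 no symbol, but only 3 of the 10 genes have one there.

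AN8223 had 110, 145 and 119 reads in the tyrosol libraries and 78, 131 and 90 in the untreated libraries. In RPKM this was 13.8, 17.2 and 13.8 with tyrosol, against 8.72, 14.7 and 12.8 untreated, and the untreated replicates 2 and 3 were close to the tyrosol values. The log2 fold change was 0.53 ± 0.18 (adjusted p = 0.0155), and it did not pass with library size as the only scaling (0.31, adjusted p = 0.132). It did not pass either without tyrosol replicate 2 (adjusted p = 0.0672) or without untreated replicate 1 (0.34, adjusted p = 0.0597).

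The genes on either side of AN8223 in the reference gene order moved more. AN8222 had a mean of 208 ± 18.5 RPKM with tyrosol, against 5.44 ± 1.59 untreated, and AN8224 had 241 ± 15.4 with tyrosol, against 106 ± 5.88 untreated (SD, n = 3 each). The strand setting of the counting is not given in the sources used here, and a part of these neighbours in the AN8223 reads was not tested.

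Aldolase, from fbaA, cleaves fructose 1,6-bisphosphate into a pair of triose phosphates, which triose phosphate isomerase, from tpiA, interconverts. These adjacent steps moved in opposite directions. The fbaA transcript had 523, 557 and 544 RPKM in the tyrosol libraries, against 1194, 1318 and 1283 RPKM in the untreated libraries. The groups did not overlap, and with TMM scaling the log2 fold change of -0.9997 ± 0.08 was just short of 2-fold (adjusted p = 7.3e-08). With library size as the only scaling, as in RPKM, it was -1.22, past 2-fold.

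The tpiA transcript had 646, 648 and 626 RPKM in the tyrosol libraries, against 456, 571 and 550 RPKM in the untreated libraries. Its lowest untreated value, in replicate 1, stood apart from the other two. The log2 fold change was 0.51 ± 0.09 (adjusted p = 0.000174), 0.42 without untreated replicate 1 (adjusted p = 0.000133) and 0.28 with library size as the only scaling (adjusted p = 0.012). Within each library, the ratio of tpiA to fbaA averaged 1.18 with tyrosol and 0.415 untreated, and did not overlap between the groups.

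Glyceraldehyde 3-phosphate dehydrogenase, from gpdA, makes the NADH of the pathway, and the gpdA promoter is widely used to drive strong expression in Aspergillus. The gpdA transcript had 1361, 1406 and 1538 RPKM in the tyrosol libraries, against 4211, 3771 and 3264 RPKM in the untreated libraries. It was the most abundant of the 10 genes in both groups. The untreated values were the more scattered, and still every one was more than 2-fold above the highest tyrosol value. The log2 fold change was -1.16 ± 0.10 (adjusted p = 2.2e-07), and its rank among all features was 64 with tyrosol, against 7 untreated.

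Phosphoglycerate kinase, from pgkA, takes the next step and forms ATP. The pgkA transcript had 483, 491 and 504 RPKM in the tyrosol libraries, against 1542, 1615 and 1454 RPKM in the untreated libraries. The groups were wide apart, the log2 fold change being -1.42 ± 0.08 (adjusted p = 2.7e-09). The ratio of pgkA to gpdA was 0.328 to 0.355 with tyrosol and 0.366 to 0.445 untreated, and the ratio of its means was 0.833, so these neighbours in the pathway stayed near one proportion although the ranges did not overlap. The ratio of gpdA to tpiA, the step before, was 2.11 to 2.46 with tyrosol and 5.93 to 9.24 untreated.

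Enolase, from acuN, makes phosphoenolpyruvate. Phosphoglycerate mutase, which acts between phosphoglycerate kinase and enolase, has no gene among the 10. The acuN gene was found through mutants that cannot use acetate, since enolase is also needed for gluconeogenesis. The reference table names acuN aspf22 after an allergen. The acuN transcript had 1168, 1121 and 1194 RPKM in the tyrosol libraries, against 1222, 1151 and 1075 RPKM in the untreated libraries. The ranges overlapped throughout, and the means were 1161 ± 36.8 RPKM with tyrosol and 1149 ± 73.4 RPKM untreated (SD, n = 3 each).

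With TMM scaling the change of acuN was 0.24 ± 0.08 on the log2 scale (95% interval 0.06 to 0.42, adjusted p = 0.0181). Scaled by library size alone it was 0.01 (adjusted p = 0.875), and by upper-quartile factors 0.17 (adjusted p = 0.072). It also missed the threshold without tyrosol replicate 1 (adjusted p = 0.0532), without tyrosol replicate 3 (0.0643) and without untreated replicate 3 (0.0602).

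Pyruvate kinase, from pkiA, closes the pathway and forms ATP. The pkiA transcript had 127, 131 and 123 RPKM in the tyrosol libraries, against 596, 524 and 505 RPKM in the untreated libraries. Of the 10 genes it had the fall furthest from 0 with TMM scaling, at -1.87 ± 0.09 (adjusted p = 4.4e-10). Set against acuN, the step before, it stood at 0.103 to 0.117 of the enolase transcript with tyrosol and at 0.455 to 0.488 untreated. Enolase and phosphoglycerate kinase transcripts had also changed places, with a ratio of acuN to pgkA of 2.28 to 2.42 with tyrosol and 0.713 to 0.792 untreated.

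**Figure D3:**
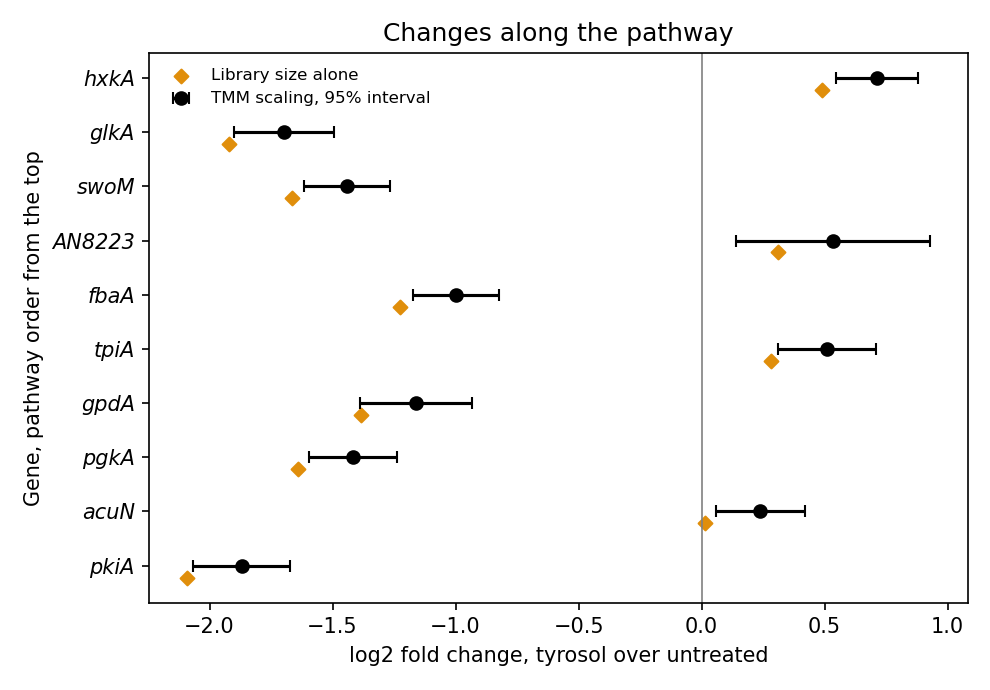
Log2 fold change of each gene, tyrosol over untreated, in pathway order from the top, with TMM scaling (circles, 95% interval) and with library size alone (diamonds). The circles run from -1.87 for pkiA to 0.71 for hxkA, and the diamonds lie lower, with acuN at 0.01.

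**Figure D4:**
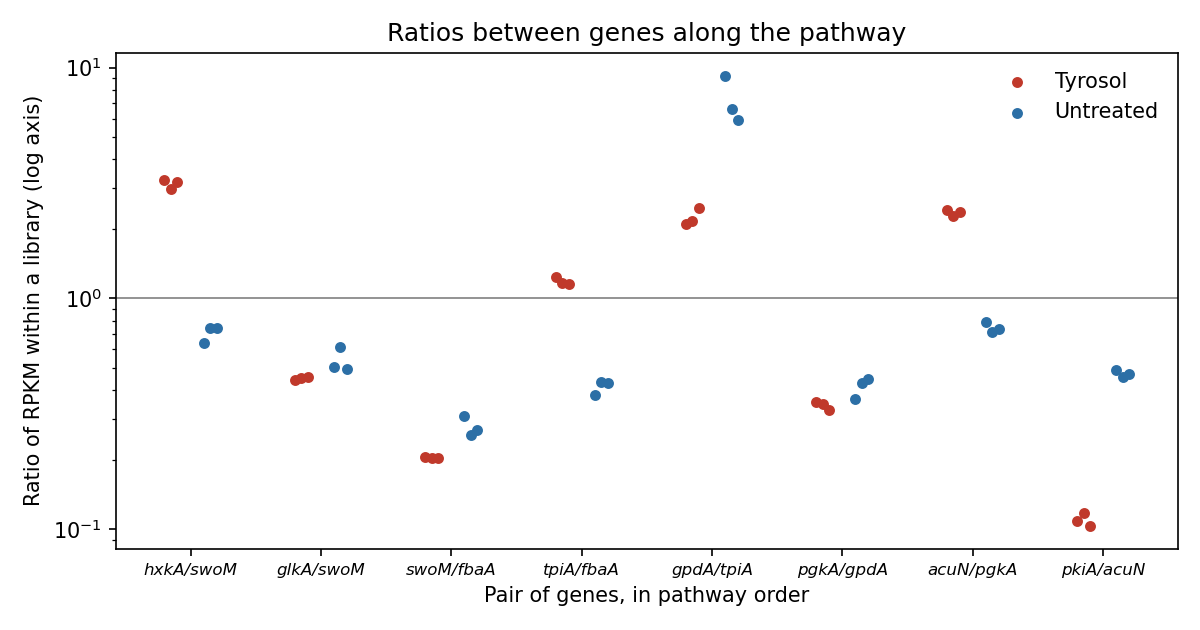
Ratio of RPKM between pairs of genes along the pathway, in each library on a log axis. Tyrosol is at the left of each pair, and a line marks a ratio of 1. Both hxkA and glkA are set against swoM, and AN8223 is left out. The first gene named is divided by the second. It is the earlier one in the pathway up to swoM/fbaA and the later one from tpiA/fbaA on. The ratios hxkA/swoM, tpiA/fbaA and acuN/pgkA lie above 1 in the 3 tyrosol libraries and under 1 in the 3 untreated libraries.

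The levels of the 10 genes therefore stood in a different order. With tyrosol it ran gpdA, acuN, tpiA, fbaA, pgkA, hxkA, pkiA, swoM, glkA and AN8223, and no neighbours in it overlapped in their ranges. Untreated it ran gpdA, pgkA, fbaA, acuN, pkiA, tpiA, swoM, hxkA, glkA and AN8223. There the ranges of fbaA and acuN overlapped, and so did those of pkiA and tpiA. Over all 10 genes, the highest mean level was 96.25 times the lowest with tyrosol and 310.8 times untreated. Leaving out AN8223, it was 29.0 times the lowest with tyrosol and 20.0 times untreated, so which group had the wider span depended on AN8223. Replicates lay close together for most of the genes: the coefficient of variation of RPKM ran from 1.94% (tpiA) to 13.2% (AN8223) with tyrosol and from 4.05% (hxkA) to 25.2% (AN8223) untreated.

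As a sum, the 10 genes took a smaller part of the tyrosol libraries. They held 0.696%, 0.700% and 0.727% of the counted reads there, against 1.47%, 1.42% and 1.30% in the untreated libraries. The groups did not overlap, and the ratio of means was 0.506 (two-sided exact permutation test, p = 0.1, the smallest that 3 against 3 allows). Of the reads in the 10 genes, gpdA held 26.8% ± 1.06 with tyrosol and 35.3% ± 2.39 untreated (SD, n = 3 each). Without gpdA the other 9 genes held 0.518% ± 0.00535 of all reads with tyrosol and 0.903% ± 0.0277 untreated.

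Other genes of central carbon metabolism were listed by gene number, and 5 of the 23 listed have the listed function by their symbol in the reference table. Of these 5, 3 fell and 2 rose, with a median log2 fold change of -0.33, beside -0.04 for all tested features. The shares over all tested features were 42.9% lowered and 40.6% raised, and 5 genes are too few for a comparison with them. The 3 that fell were the annotated genes of gluconeogenesis (SD, n = 3 each, for the means that follow). The phosphoenolpyruvate carboxykinase gene acuF had 20.3 ± 1.51 RPKM with tyrosol and 36.4 ± 6.04 untreated, which came to -0.62 ± 0.12 on the log2 scale (adjusted p = 0.000361). The fructose-1,6-bisphosphatase gene fbp1 (AN5604, known as acuG in Aspergillus nidulans) had 16.5 ± 3.43 RPKM with tyrosol and 35.7 ± 5.94 untreated, a change on the log2 scale of -0.89 ± 0.15 (adjusted p = 0.000121). The gene of the activator acuM, which is needed for growth on gluconeogenic carbon sources, fell by 0.33 ± 0.09 on the log2 scale (adjusted p = 0.00353). Transcripts of both directions at the phosphoenolpyruvate step thus fell, and the ratio of pkiA to acuF was 6.61, 6.66 and 5.59 with tyrosol, against 14.7, 13.3 and 17.1 untreated. That ratio differed by -1.26 on the log2 scale (two-sided exact permutation test, p = 0.1, the smallest possible).

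The ratio of AN8223 to fbp1 was 0.964, 1.16 and 0.673 with tyrosol and 0.205, 0.453 and 0.399 untreated, a difference of 1.45 on the log2 scale (two-sided exact permutation test, p = 0.1). Given the short length of AN8223, this ratio does not compare the opposed enzymes. With the other ratios tested (glkA to hxkA, pkiA to acuF) it made a family of 3, and each adjusted value was 0.1.

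The 2 listed genes that rose were creA and tktA. The carbon catabolite repressor gene creA had 262 ± 7.45 RPKM with tyrosol and 132 ± 23.5 untreated (log2 fold change 1.22 ± 0.11, adjusted p = 3.6e-07). The transketolase gene tktA, of the pentose phosphate pathway, which exchanges sugar phosphates with glycolysis, had 238 ± 11.7 RPKM with tyrosol and 160 ± 13.5 untreated (0.80 ± 0.09, adjusted p = 1.6e-06).

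A further 6 genes around the hexose phosphates, tktA among them, were taken from the symbols of the reference table after the data had been seen. The median of these 6 was -0.44 on the log2 scale: 3 fell, 2 rose and 1 missed the threshold. For all tested features the shares were 42.9% lowered and 40.6% raised, and these 6 genes are likewise too few for a comparison. The UTP-glucose-1-phosphate uridylyltransferase gene ugp1 had 45.3 ± 2.84 RPKM with tyrosol and 308 ± 40.5 untreated (log2 fold change -2.54 ± 0.11, adjusted p = 1.4e-10). The gene of glutamine-fructose-6-phosphate aminotransferase, gfa1, which opens the route to chitin, had 194 ± 16.4 RPKM with tyrosol and 595 ± 73.7 untreated (-1.39 ± 0.10, adjusted p = 3.2e-08). The mannose-6-phosphate isomerase gene pmi1 fell by 0.69 ± 0.09 on the log2 scale (adjusted p = 1.3e-05). The trehalase gene treA rose by 0.95 ± 0.14 (adjusted p = 2.2e-05), and the trehalose phosphatase gene orlA had a change of -0.19 ± 0.09, which did not pass (adjusted p = 0.0519).

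The features whose level profile over the 6 libraries lay nearest to gpdA, by Euclidean distance on log2(RPKM + 1), were AN4064, AN1624 and AN5715. AN4064, at a distance of 0.406, had 1443 ± 108 RPKM with tyrosol and 3946 ± 196 untreated. AN1624, at 0.626, had 1161 ± 70.9 RPKM with tyrosol and 3933 ± 45.0 untreated. AN5715, at 0.823, had 1666 ± 63.6 RPKM with tyrosol and 3024 ± 323 untreated (SD, n = 3 each). None of these has a symbol in the reference table.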

How the data were processed

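Per the file headers, the authors deposited a count of reads, a length and an RPKM value for every feature and library. The authors' counts are whole numbers that had not been scaled. Dividing each count by length and column total gives back the deposited RPKM (largest relative difference 1.26e-14). FastQC, HISAT2 2.1.0, DESeq2 1.24.0 and edgeR are named, without their roles, per the submitters' processing notes. For build, read counter and strandedness: not given in the sources used here. Columns headed T were read as tyrosol and columns headed K, taken as Hungarian for control, as untreated.

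Counts passed filterByExpr, were scaled with TMM and went into the two-sided quasi-likelihood test of edgeR 4.0.16 in R 4.3.3, on the whole table, after a test on simulated data. The SE was the absolute log2 fold change divided by the root of F. Ratios, shares and exact permutation tests used the deposited values. Alternatives used DESeq2 1.42.0 and limma 3.58.1. Total counts per library limit the precision of weakly expressed genes. Symbols came from a RefSeq table of assembly ASM1142v1, in which 9 of the 10 genes (not glkA) were found, 3 with a symbol. It served for names and gene order only. The genes named are the 10, the annotated list genes and the 3 features nearest to gpdA. AN8222 and AN8224 were added after their values were seen. Genes and lists were chosen with earlier results of these data known. Protein likeness was planned and not run, since no protein sequences were used here.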

Additional observations from a re-analysis of the deposited data

How the results depend on the processing

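The count of 6 genes that fell was 6 under all 10 alternative settings and with each of the 6 libraries left out. The count of 4 that rose was 2 with library size as the only scaling, 2 with limma on log2(RPKM + 1) and 2 at an adjusted p under 0.01. It was 3 with upper-quartile factors, 3 to 4 with 1 library left out and 4 under the others, and the genes that lost the call were acuN, AN8223 or both. No fold change of the 10 genes turned direction. The log2 fold change of pkiA ran from -2.09 to -1.79, of glkA from -1.92 to -1.63, of gpdA from -1.39 to -1.07, of hxkA from 0.49 to 0.76 and of tpiA from 0.28 to 0.57. That of fbaA ran from -1.22 to -0.95, on both sides of a 2-fold fall. The count of all features changed was 7432 of 8905 tested. It ran from 6647 of 7794 tested (at least 50 reads in 3 libraries) to 7762 of 10586 tested (no filter on low counts). Both ends thus came from settings that changed the number of features tested. The 3 ratios and the summed share of reads kept their direction with each library left out and under the alternatives run for them (1 RPKM added to both genes of a ratio; summed RPKM in place of reads, or no gpdA, for the share), and their tests could not pass the threshold in a design of this size. Same-numbered libraries showed no sign of deviating together from their group means (correlations -0.0821, -0.00593 and -0.0404). Correlations from 3 libraries per group cannot settle whether the samples were paired. With the replicate number as a block, 4 genes rose, 6 fell and 7383 features changed, and the differences in the ratios and the share were as without it (-2.41, 1.45, -1.26 and -0.69), with exact p = 0.25, the smallest that 3 pairs allow. The summed RPKM of hxkA and glkA, which differed by -38.8 (tyrosol minus untreated) by library totals, differed by 25.9 after division by the TMM factors (exact permutation p = 0.2), a setting chosen after seeing the data; the size of those factors accounts for the turn. Low counts limit AN8223, with 78 to 145 reads per library.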
